A study of Arabidopsis thaliana with 33 samples.

Results

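The comparison of the double mutant ski2-2 dcl4-2 with the single mutant dcl4-2 sets the mRNA of Arabidopsis shoots carrying ski2-2 on top of dcl4-2 beside that of shoots with dcl4-2 alone. Its members were the genes with at least 1 FPKM (fragment counts corrected for transcript length and sequencing depth) in either genotype, 19748 of the 33557 genes in the table. The last gene inside this limit had a maximum of 1.001 FPKM and the first outside it 0.9998 FPKM. Each genotype stood for 3 libraries of polyA RNA from the aerial parts of 20-day-old plants, grown on MS plates for 6 days and then in soil for 14 days, untreated, with 15:00 given as the hour of collection. Both groups carried dcl4-2 and the double also ski2-2. Other groups are set beside them: the wild type Col-0, ski2-2, the triple ski2-2 dcl4-2 dcl2-1, and the pair dcl2-1 and ski2-2 dcl2-1. The ein5-1 single mutant, its doubles with dcl4-2 and with dcl2-1 and its triple with both, grown alike, enter through marker sums and listed zeros. The labels name the alleles without describing the lesions.

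SKI2 is an RNA helicase that threads cytoplasmic mRNA into the exosome, which degrades it from the 3' end. When this decay fails, some plant mRNAs are copied into double-stranded RNA and cut into small interfering RNAs (siRNAs) by the Dicer-like enzymes DCL4 and DCL2. The DCL2 products differ in length from the DCL4 products, and the series title links them to translational repression and to stress adaptation. Of DCL4 and DCL2, the dcl4-2 background leaves DCL2 in place, and the triple mutant carries mutations in both. No label names a mutation in the other Dicer genes, DCL1 and DCL3.

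The authors pooled the libraries of a genotype into a single FPKM per gene, so FPKM values are printed without SD or n, and read depth is unknown. The words rose and fell are kept for members with a q of at most 0.05 and a ratio of at least 2-fold, both read from the authors' deposited table. Differences written as log2 values are on the log2(FPKM + 1) scale, which understates changes of low genes. The smallest q, 0.000211, is shared by 7167 members of the authors' deposited table and does not rank them. In these whole-shoot samples fewer cells of a type and less RNA per cell cannot be told apart. The photosynthesis genes below held 29.7% of the FPKM sum in dcl4-2 and 10% in the double, whereas the 8 root markers were at 30.4 FPKM in sum in dcl4-2 and at 813 FPKM in ski2-2 dcl4-2. Their sum was 17.58 to 76.48 FPKM in 9 other genotypes of the series and 271 FPKM in ein5-1 dcl4-2. Most of the sum in dcl4-2 and in the double came from the marker PYK10, given below. The dcl2-1 pair stands apart in clock state, with the morning gene CCA1 at 3.32 FPKM in dcl2-1 and 6.74 FPKM in ski2-2 dcl2-1 against 80.0 to 170 FPKM in the other genotypes compared. Clock list sums were 5582.8 FPKM in dcl2-1, 3739.8 in ein5-1 dcl2-1, 3380.5 in the ein5-1 triple and 1083.4 in Col-0. The pair differed beyond the clock, and ein5-1 dcl2-1 and the ein5-1 triple shared this. Anthocyanin and flavonol genes summed to 339.9 FPKM in dcl2-1 and 1516.3 in Col-0, and ABA and drought genes to 5766.7 and 2293.1 FPKM. In ein5-1 dcl2-1 and the ein5-1 triple the anthocyanin and flavonol sums were 446 and 553.8 FPKM. Their ABA and drought sums were 5406.6 and 4997.0 FPKM.

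The mutated genes were read first. SKI2 (AT3G46960, chromosome 3, 17290873 to 17298222 in TAIR10.1) was at 6.82 FPKM in dcl4-2 and 3.90 FPKM in ski2-2 dcl4-2. In the other pairs it was at 6.91 FPKM in Col-0 against 2.62 in ski2-2 and at 5.04 FPKM in dcl2-1 against 3.18 in ski2-2 dcl2-1, so the ski2-2 genotype was the lower in each pair without losing the transcript. DCL4, whose allele both genotypes carry, was at 4.51 and 4.89 FPKM. DCL2, the related Dicer that dcl4-2 leaves in place, was at 4.96 FPKM in dcl4-2, 9.02 FPKM in the double and 1.92 FPKM in the triple. The authors' deposited table gave its log2 ratio as 0.88 (q = 0.000211), which stayed under the 2-fold limit.

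Loss of SKI2 in dcl4-2 changed the shoot transcriptome widely. Of the members 2902 rose, 14.7%, and 2596 fell, 13.1%, together 27.8%, by the authors' deposited table, and 731 of the rises and 270 of the falls were at least 8-fold. The median member differed by 0.061 (log2). Falls were concentrated among abundant genes and rises among scarce ones: of the 106 members with a mean of at least 1000 FPKM over both genotypes, 73 fell and 7 rose, while of the 5489 with a mean of 0.5 to 5 FPKM, 710 fell and 1347 rose. The FPKM sum was 1150496 in dcl4-2 and 753957 in the double. A further 6309 members passed the q with ratios under 2-fold.

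**Figure D1:**
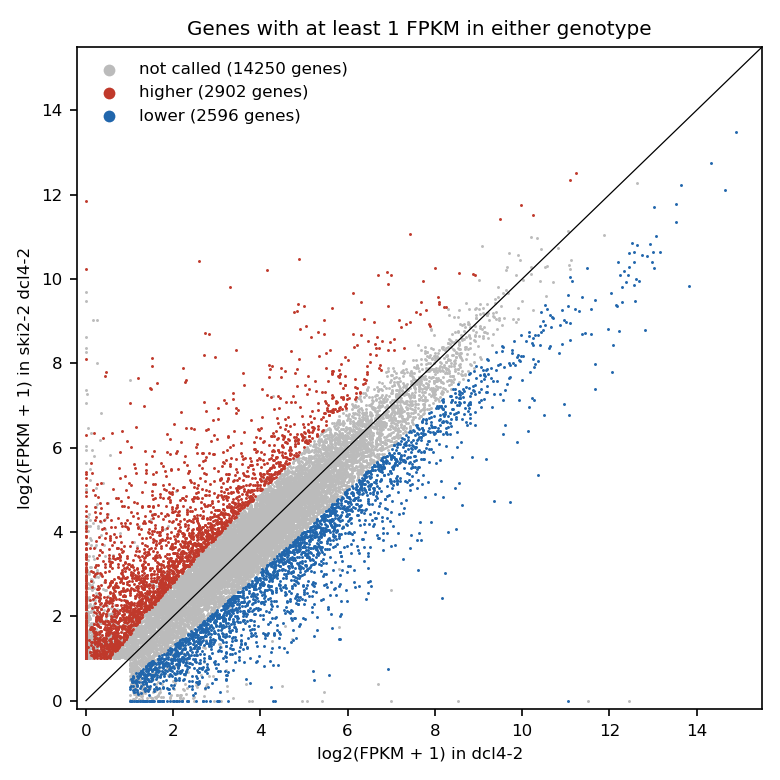
Each point is a member, with log2(FPKM + 1) in dcl4-2 on the x axis and in ski2-2 dcl4-2 on the y axis, and the line marks equal values. The 2902 red genes rose and the 2596 blue genes fell by the authors' deposited table, and at the top of the range most points lie under the line.

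The largest rises included genes of lipid transfer and of desiccation tolerance. The lipid transfer protein gene LTP4 (AT5G59310) was at 4.99 FPKM in dcl4-2 and 1376 FPKM in the double, and its similar neighbour LTP3 (AT5G59320) at 8.87 and 901 FPKM. LEA4-5 (AT5G06760), a late embryogenesis abundant (LEA) protein of the kind that protects drying cells, was at 0.379 and 220 FPKM. The LEA protein gene AT3G02480 went from 1.87 to 280.5 FPKM, and the glycine-rich protein gene GRP9 (AT2G05440) from 16.8 to 1183 FPKM. GPT2 (AT1G61800), a plastid transporter of glucose-6-phosphate, rose from 5.60 to 419 FPKM. The 12 largest rises also held AT4G08570, a heavy metal transport superfamily gene (0.361 to 208 FPKM), DIP2 (AT5G03210, 1.3 to 201), AT3G56275 (1.87 to 243), the peroxidase gene AT5G64100 (0.142 to 80.2), AT1G16850 (0.998 to 131) and AT2G37870 (1.78 to 170). In the authors' deposited table the q was 0.0452 for AT5G64100, 0.00638 for LEA4-5, 0.00177 for AT4G08570 and 0.000211 for the other 9. In Col-0 and ski2-2 the 12 genes had at most 20.4 FPKM, and the double exceeded that level for each of them.

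The 12 largest falls were led by MEE3 (AT2G21650), a MYB-like protein, which was at 120 FPKM in dcl4-2 and 0.675 FPKM in the double (q = 0.00285, authors' deposited table). XTH6 (AT5G65730), an enzyme that cuts and rejoins wall xyloglucan, fell from 302 to 7.10 FPKM, and FBA5 (AT4G26530), a cytosolic fructose-bisphosphate aldolase, from 847 to 25.2 FPKM. NEET (AT5G51720), an iron-sulfur cluster protein of the chloroplast and mitochondrion, fell from 650 to 25.5 FPKM. AT3G16670, of the Ole e 1 allergen and extensin family, fell from 284 to 4.40 FPKM, and AT1G67865, an uncharacterized gene, from 1327 to 40.1 FPKM. The others were AT2G20870, a cell wall protein precursor (46.2 to 0.512 FPKM), AT5G56840, a myb-like factor (36.6 to 0.394), AT4G33666 (194 to 7.53), the GDSL lipase gene AT5G33370 (36.0 to 0.638), the thionin gene AT1G66100 (355 to 15.8) and AT1G62500 (55.3 to 1.77). AT1G67865 was at 1142 FPKM in Col-0 and 3334 in ski2-2, so its value in the double was the lowest of the 4 genotypes by a wide margin.

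**Figure D2:**
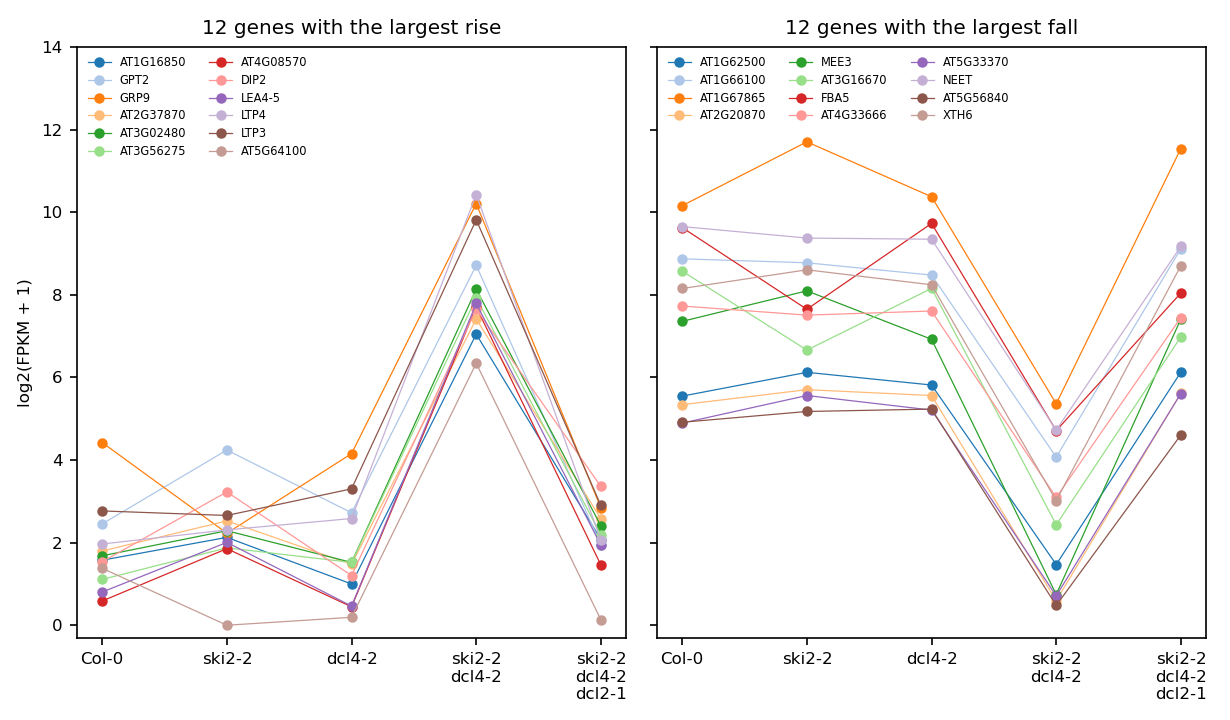
Points give log2(FPKM + 1) of the 12 genes with the largest rise (left) and the 12 with the largest fall (right) in 5 genotypes, and the lines join the values of a gene. In ski2-2 dcl4-2 the genes of the left panel reach 80.2 to 1376 FPKM and those of the right panel fall to 0.394 to 40.1 FPKM.

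Genes known as sources of siRNAs when SKI2 or EIN5 is lost were the nitrate reductase genes NIA1 and NIA2, which make nitrite from nitrate, and SMXL4 and SMXL5, which act in phloem formation. NIA2 (AT1G37130, chromosome 1, 14158452 to 14161938 in TAIR10.1) was at 84.5 FPKM in dcl4-2 and 83.6 FPKM in the double (q = 0.998, authors' deposited table). In the Col-0 pair it was at 109 FPKM in Col-0 and 489 FPKM in ski2-2, a log2 difference of 2.16 against -0.02 in the dcl4-2 pair. In the triple without DCL2 it was at 531 FPKM, higher than in the double (q = 0.000211, authors' deposited table). In dcl2-1 and ski2-2 dcl2-1, which also keep DCL4, it was at 98.0 and 150.4 FPKM. In the dcl4-2 pair NIA1 was at 21 and 39.6 FPKM, a ratio under the 2-fold limit, SMXL5 rose from 4.2 to 8.57 FPKM, and SMXL4 was at 2.24 and 1.61 FPKM (q = 0.0669, authors' deposited table). Read densities of siRNAs were not analysed here.

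**Figure D3:**
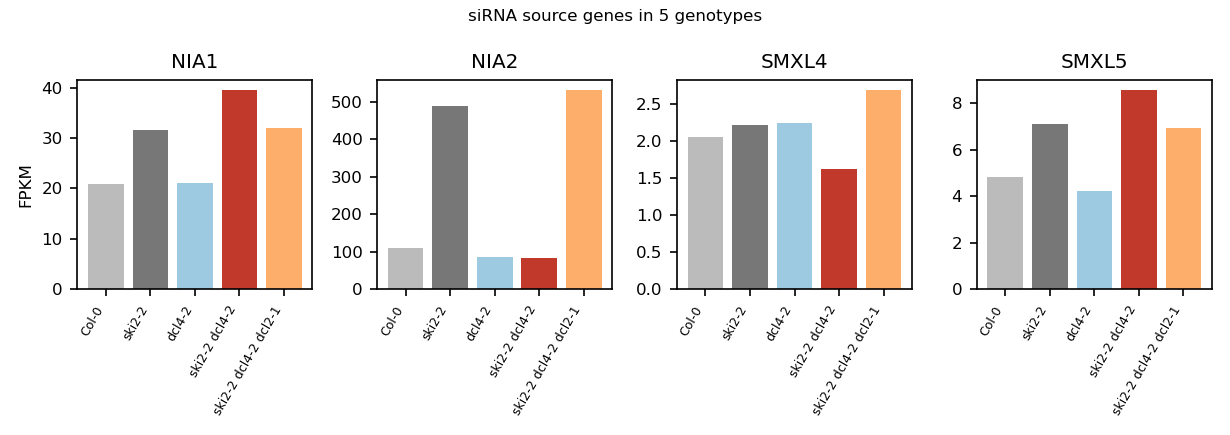
Bars give the pooled FPKM of NIA1, NIA2, SMXL4 and SMXL5 in 5 genotypes, each panel on its own scale from 0. NIA2 stands at 489 and 531 FPKM in ski2-2 and the triple and at 83.6 to 109 FPKM in the other 3 genotypes.

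Factors of RNA decay and silencing changed little. Of 30 decay genes 1, the deadenylase gene CAF1A, fell, from 30.3 to 7.79 FPKM, and none rose, with a list median of 0.19 (log2). The core exosome gene RRP4 was at 5.09 and 8.71 FPKM and SKI3, the scaffold of the SKI complex, at 6.09 and 8.89 FPKM, both under the 2-fold limit. Of 26 silencing genes 22 were members. AGO2, an Argonaute that binds siRNAs, rose from 5.70 to 11.9 FPKM, and NRPD1, the largest subunit of RNA polymerase IV, fell from 1.71 to 0.823 FPKM. AGO1 was at 47.3 and 55.7 FPKM, RDR6, which makes double-stranded RNA, at 7.90 and 8.02 FPKM, and SGS3, its partner, at 14.4 and 16.3 FPKM.

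Among loci and targets of trans-acting siRNAs, whose formation needs DCL4, 6 of 13 members rose and 1 fell on top of the shared dcl4-2 state. The noncoding precursor TAS4 rose from 1.22 to 41.1 FPKM, and the MYB genes its siRNAs target, PAP1 and PAP2, from 22.6 to 224 and from 5.70 to 85.1 FPKM. TAS2 rose from 11.6 to 28.9 FPKM, TAS1A from 5.32 to 10.7 FPKM and the TAS1 target HTT2 from 20.9 to 49.2 FPKM. TAS3 fell from 40.6 to 8.95 FPKM, while its targets, the auxin response factor genes ARF3 and ARF4, were at 25.6 and 27.4 and at 31.5 and 60.2 FPKM and were not called. Of 52 miRNA targets measured, 9 rose and 12 fell, with a median of -0.07. Of all members 14.7% rose and 13.1% fell, so the rises were near the general share. The rises held the miR169 targets NFYA3 (6.03 to 28.3 FPKM), NFYA5 (4.59 to 27.3), NFYA8, NFYA9 and NFYA10, and the miR172 targets SNZ (12.2 to 45.7), SMZ and TOE2, all transcription factor genes, and APS4. The falls held the laccase gene LAC4 (15.7 to 2.05 FPKM), the copper-zinc superoxide dismutase gene CSD2 (1011 to 287), APS3 (52.0 to 13.1) and leaf growth and phase factors such as GRF2, SPL9 and TCP4.

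Abscisic acid (ABA) is the hormone of drought. It binds PYR/PYL receptors, which then block clade A PP2C phosphatases, so that SnRK2 kinases can activate ABF transcription factors and the protective genes behind them. Of 58 members of the ABA and drought list 37 rose and 9 fell, with a median difference of 1.72 (log2) beside 0.061 for all members. The roles differed in direction. Of 14 annotated receptor genes 9 were members and 7 fell, the 6 of the list and RCAR3, which was added with the rest of the family after the list's values were seen. PYL4 fell from 90.5 to 11.5 FPKM, PYL5 from 20.7 to 5.33, PYL1 from 52.5 to 14.9, PYR1 from 125 to 42.4, PYL2 from 3.79 to 0.794 (q = 0.0390, authors' deposited table) PYL6 from 3.69 to 0.928 and RCAR3 from 42.0 to 14.5 FPKM. PYL7 was at 12.1 and 7.22 FPKM and RCAR1 at 21.5 and 21.0023 FPKM, and neither was called. Of 8 phosphatase genes 7 rose, among them HAI1 from 1.53 to 125 FPKM, HAI2 from 0.505 to 81.1, HAB1 from 20.4 to 122 and ABI2 from 8.27 to 40.8 FPKM. HAI3 was at 0.0988 and 5.33 FPKM (q = 0.106, authors' deposited table).

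Of the SnRK2 kinase genes SNRK2.2 rose from 33.8 to 75.8 FPKM, and SNRK2.3 and SNRK2.6 were at 14.3 and 24.1 and at 8.99 and 16.6 FPKM. All 11 members among the transcription factor and cofactor genes of the list rose, and NAC055 was below 1 FPKM in both genotypes. Examples were AFP1 (0.705 to 58.3 FPKM), AFP3 (4.26 to 87.9), HB7 (17.5 to 231), HB12 (26.7 to 216) and ABF2 (15.52 to 104). NCED3, the rate-limiting enzyme of ABA synthesis, rose from 1.25 to 20.8 FPKM, whereas ABA1 and ABA2 of the same route fell from 368 to 182 and from 33.9 to 13.2 FPKM. The ABA hydroxylase genes CYP707A1 and CYP707A2, which break ABA down, rose from 1.98 to 11.3 and from 2.13 to 6.62 FPKM, and CYP707A3 was at 6.70 and 3.61 FPKM.

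The protective outputs had the highest median of the roles, 3.57, with 14 of 22 risen and 1 fallen. RAB18, a dehydrin, went from 28.7 to 1429.6 FPKM, KIN1 from 3.64 to 236, HIS1-3, a drought-linked linker histone, from 5.55 to 290.0, XERO2 from 3.51 to 115, RD29A from 25.1 to 313, COR15A from 96.9 to 507 and P5CS1, which makes proline, from 68.5 to 811 FPKM. RD22 was at 518 and 998 FPKM and ERD1 at 68.8 and 64.2 FPKM, and neither was called. Outputs with near-zero dcl4-2 values did not all pass the test in spite of their size: LEA7 at 0.126 and 518 FPKM, RD29B at 0.0188 and 154 FPKM and TSPO at 0.0807 and 81.1 FPKM. Their q values in the authors' deposited table were 0.346, 0.346 and 0.235. In the Col-0 pair the list's median was 0.27, and 6 members were at least 1 (log2) higher and 6 at least 1 lower, with RAB18 at 27.2 and 49.1 FPKM, HAI1 at 1.85 and 1.98 FPKM and P5CS1 lower in ski2-2, at 70.5 and 11.2 FPKM.

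**Figure D4:**
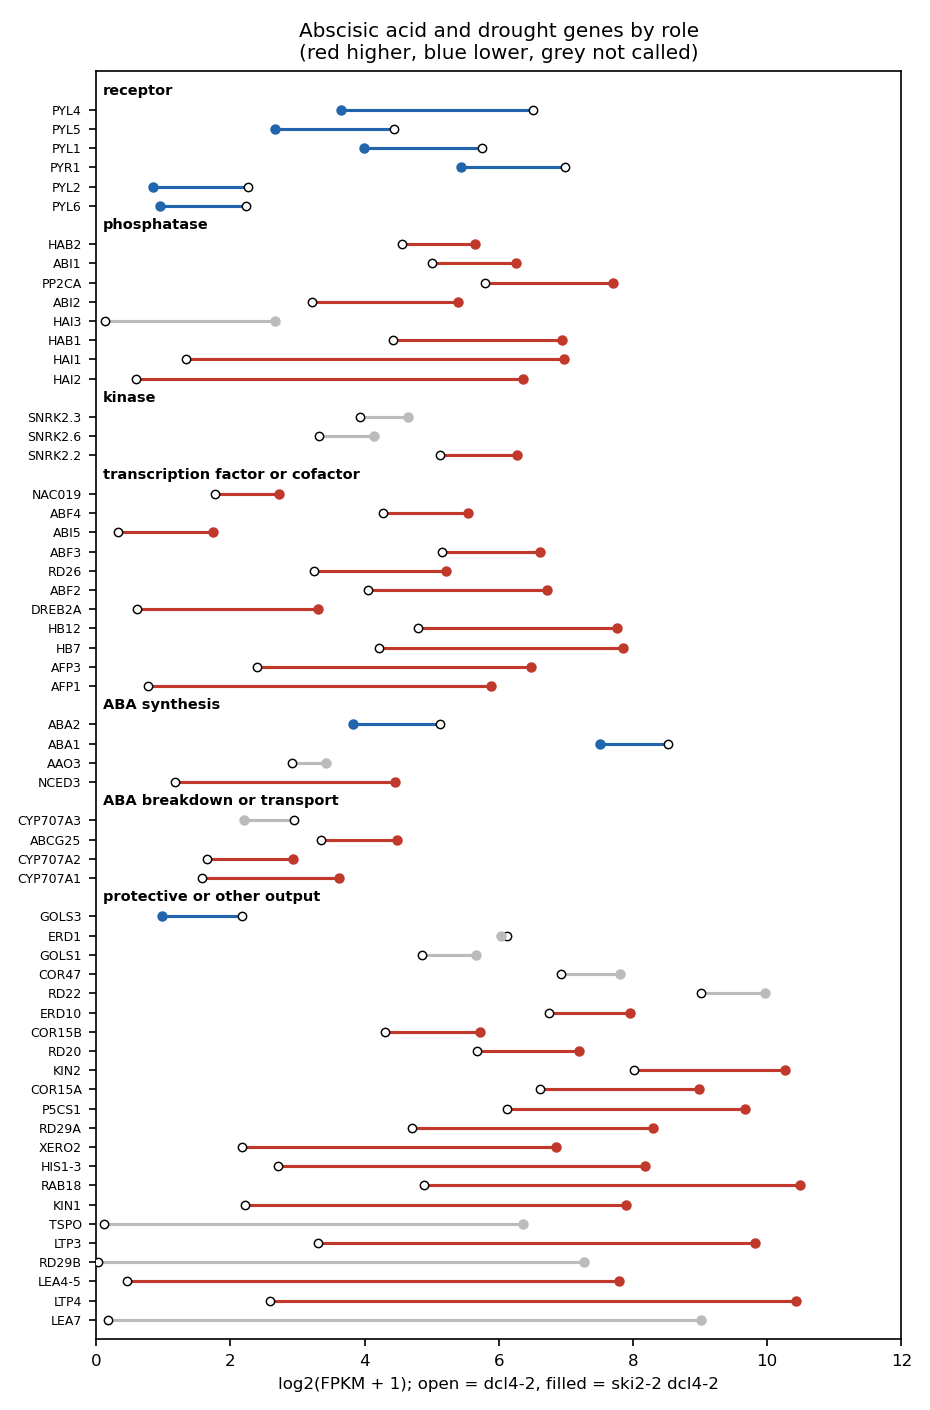
Open circles give log2(FPKM + 1) of the ABA and drought members in dcl4-2 and filled circles in ski2-2 dcl4-2, grouped by role, red where a gene rose, blue where it fell and grey where it was not called. The 6 receptors of the list, out of 9 measured, lie lower in the double, whereas 7 of 8 phosphatases and 14 of 22 outputs rose.

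The bases before the annotated start of the ABA genes were read for the ABA response element, written ACGTGNC and searched on both strands from -200 to -1, since ABF factors are known to bind it. The motif can overlap the G-box CACGTG. Of the ABA and drought members 20 of 58 windows held it, 34.5%, beside 11% of 2897 windows of risen members, 8.94% of 2595 of fallen members, 8% of 14194 uncalled members and 6.78% of all 32809 gene windows. By role it was in 6 of 22 output windows, 3 of 8 phosphatase windows and 0 of 6 windows of the listed receptors. It was not particular to this list: 14 of 51 photosynthesis windows, 27.5%, and 9 of 20 clock windows, 45%, held it too. The windows of an output with a pair of matches, an output with 3, a phosphatase with 1 and a receptor with none are shown to set the roles side by side, and they were chosen after the search. Matches are in capitals, and no match says only that these letters are not in this window. Sequences and positions are from the RefSeq annotation of TAIR10.1, at chr5:2090431-2090630, minus strand (LEA4-5), chr5:21236821-21237020, plus strand (RD29B), chr1:2282829-2283028, minus strand (HAI2) and chr2:16049718-16049917, plus strand (PYL4), each printed 5′ to 3′ towards the gene.
LEA4-5: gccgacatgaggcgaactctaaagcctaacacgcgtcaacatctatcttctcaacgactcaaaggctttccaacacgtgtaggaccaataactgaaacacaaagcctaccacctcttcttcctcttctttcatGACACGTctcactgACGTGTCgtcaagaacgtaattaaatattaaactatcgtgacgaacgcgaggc
RD29B: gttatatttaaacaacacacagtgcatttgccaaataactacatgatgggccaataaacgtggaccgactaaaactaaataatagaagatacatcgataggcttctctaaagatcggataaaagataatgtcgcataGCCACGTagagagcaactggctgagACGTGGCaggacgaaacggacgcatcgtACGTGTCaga
HAI2: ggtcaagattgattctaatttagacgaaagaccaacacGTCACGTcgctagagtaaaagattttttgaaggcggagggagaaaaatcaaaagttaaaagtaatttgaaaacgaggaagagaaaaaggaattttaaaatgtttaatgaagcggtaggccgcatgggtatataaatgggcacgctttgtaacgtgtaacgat
PYL4: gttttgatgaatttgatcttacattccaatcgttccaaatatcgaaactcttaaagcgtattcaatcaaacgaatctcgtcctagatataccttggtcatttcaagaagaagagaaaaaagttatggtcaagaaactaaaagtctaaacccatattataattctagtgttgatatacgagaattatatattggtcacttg

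Nuclear genes of photosynthesis fell. All 51 members of the list fell, with a median of -2.24 (log2) and a range of -5.02 to -1.18. The lowest was FBA5, the cytosolic aldolase; without it 50 of 50 fell, with a median of -2.21 and a lowest value of -4.28. The list's share of the FPKM sum went from 29.7% to 10%. The antenna gene LHCB2.3 fell from 3277 to 168 FPKM, CA1, a carbonic anhydrase, from 4285 to 220.02 FPKM, and the Rubisco small subunit genes RBCS2B from 7179 to 442 and RBCS3B from 14507 to 905 FPKM. RBCS1A, the most abundant Rubisco small subunit gene here, fell from 25559 to 4452 FPKM, RCA, the Rubisco activase, from 9189 to 1592 FPKM, and the photosystem I gene PSAF from 6143 to 706 FPKM. Members of a gene family fell to unlike degrees: LHCB1.4 was at 3281 and 253 FPKM, and LHCB1.3 at 30712 and 11534 FPKM. The copies of LHCB1 and of RBCS are near-identical, and how the authors' counting divided reads between them was not stated. In the Col-0 pair the list median was -0.60 and 7 members differed by at least 1 (log2), and in the dcl2-1 pair it was -0.03. After quantile normalization of all genotypes, which sets their distributions equal, 27 of the 51 still fell 2-fold with the median at -1.04. None of the 133 chloroplast-encoded genes reached 1 FPKM in any of the 11 genotypes.

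Anthocyanin and flavonol genes rose at regulatory, early and late steps. Of 26 members 20 rose and 1 fell, with a median of 2.06. The regulators PAP1, PAP2 and TT8, which switch the pathway on, rose, TT8 from 3.85 to 54.8 FPKM. MYBL2, a repressor of the pathway, fell from 107 to 45.6 FPKM. Other regulators differed: the repressor CPC was higher, at an authors' log2 ratio of 1.84 (q = 0.000211, authors' deposited table). By the same table TTG1 was at -0.85 (q = 0.000211), EGL3 at 0.14 (q = 0.63) and GL3 at 0.60 (q = 0.192), all under the 2-fold limit. The early enzymes CHS, CHI and F3H rose from 725 to 2729, from 60.8 to 283 and from 119 to 1148 FPKM. The late enzymes DFR and LDOX rose from 127 to 1099.6 and from 121 to 941 FPKM, the glycosyltransferase gene AT4G14090 from 38.9 to 426 FPKM, and TT19, which carries the pigment towards the vacuole, from 77.6 to 698 FPKM. FLS1, which diverts the route to flavonols, was at 77.9 and 96.5 FPKM. This list differed in the Col-0 pair too, with a median of 1.26 and 16 members at least 1 higher, DFR at 97.6 and 262 FPKM among them. In the dcl2-1 pair the median was 0.15, but the list was low in both genotypes there, at 339.9 and 393.2 FPKM in sum. It summed to 1516.3 FPKM in Col-0.

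Iron genes include those that plants switch on to take up iron when it is scarce. Of 23 members 14 rose and 4 fell, with a median of 2.1 beside 0.00 in the Col-0 pair, where NAS1 alone was at least 1 higher (7.41 and 36.6 FPKM). The bHLH factor genes of the response, BHLH38, BHLH39 and BHLH100, rose from 0.884 to 30.8, from 0.404 to 19.4 and from 0.584 to 16.3 FPKM. FRO2, the ferric reductase, rose from 1.86 to 28.3 FPKM, NAS1, which makes the iron chelator nicotianamine, from 5.52 to 134 FPKM, and PYE and BTS, regulators of the response, from 6.59 to 29.1 and from 18.7 to 51.6 FPKM. AT1G47395 and AT1G47400, which the annotation gives as uncharacterized proteins, rose from 6.75 to 284 and from 3.06 to 92.6 FPKM. NAS2 was at 16 FPKM in the double and listed at 0 in dcl4-2. The 4 that fell were the ferritin genes FER3 (44.7 to 16.7 FPKM) and FER4 (47.0 to 9.57), which store iron, NAS3 (27.1 to 1.79) and NEET. FER1 was at 259 and 229 FPKM. The transporter gene IRT1 was at 0.0995 and 60.6 FPKM (q = 0.363, authors' deposited table).

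Nitrogen genes cover nitrate transport, reduction and assimilation. Of 27 nitrogen members 8 rose and 3 fell, with a median of 0.51 beside 0.061 for all members. Of all members 14.7% rose and 13.1% fell, so the falls were near the general share. Among the transport genes that rose, NRT2.1, a root uptake gene, went from 0.0852 to 48.6 FPKM (q = 0.0445, authors' deposited table), its partner NRT3.1 from 4.76 to 63.7, NRT1.7, which moves nitrate out of old leaves, from 27.5 to 232, and NRT1.5 from 13.5 to 68.7 FPKM. NIR1, the nitrite reductase that follows NIA1 and NIA2, rose from 49.1 to 219 FPKM while NIA2 was not called. The chloroplast assimilation genes GLN2 and GLU1 fell from 1369 to 468 and from 443 to 148 FPKM, and GLN1;4 from 57.4 to 8.93 FPKM. ASN2, an asparagine synthetase, rose from 22.9 to 134 FPKM. Of 14 sulfur limitation members 9 rose and none fell, beside the same general shares. LSU1 rose from 1.93 to 60.03 FPKM, SDI1, a repressor of glucosinolate synthesis, from 1.43 to 23.63 and the sulfate transporter gene SULTR1;2 from 0.620 to 26.96 FPKM. The sulfate genes APS3, SULTR2;1 and APS1, outside this list, were lower, while APS4 rose. Their authors' log2 ratios were -1.97, -1.05, -0.85 and 1.01 (q = 0.000211 each, authors' deposited table). Of 6 phosphate members 4 rose, with 2 passing on the log2(FPKM + 1) scale, after quantile normalization or at a minimum of 5 FPKM. Among the 4 was the transporter gene PHT1;1 from 0.0957 to 41.3 FPKM (q = 0.0388, authors' deposited table).

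Several of these transporters belong to roots, and other root markers moved with them. Of 8 root markers 6 rose and none fell: PYK10, a glucosidase of root ER bodies, from 28.1 to 673 FPKM, NRT2.1, the peroxidase gene AT4G30170 from 0.292 to 10.5, RCI3 from 0.966 to 5.69, HKT1 from 0.525 to 4.57 and SKOR from 0.225 to 1.12 FPKM. TIP2;3 was at 0.168 and 8.33 FPKM (q = 0.0527, authors' deposited table), and IRT1 is given above. The summed markers, most of them PYK10, made 0.00264% of the FPKM sum in dcl4-2 and 0.108% in the double. Their part in the iron, nitrogen, sulfur and phosphate results was not tested. The iron genes NAS3, FER3, FER4 and NEET fell, as given above, and whether their falls bear on the root markers was not tested either.

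Clock genes differed between libraries labelled with the same collection hour. Of 20 members 11 rose and 1 fell, with a median of 1.1 beside 0.01 in the Col-0 pair. Several genes known to peak in the afternoon or evening rose, FKF1, a light-sensing F-box protein, from 0.149 to 18.6 FPKM, PRR5 from 0.568 to 12.7, ELF4 from 5.03 to 47.4, LUX from 3.40 to 15.4 and GI from 8.62 to 20.5 FPKM. GRP7, an RNA-binding protein under clock control, rose from 102 to 1089 FPKM, whereas its relative GRP8 was at 257 and 271 FPKM. Of the morning genes LHY rose from 47.3 to 115 FPKM and CCA1 was at 85.5 and 80.0 FPKM. CHE fell from 92.5 to 18.4 FPKM. The evening element AAAATATCT, searched on both strands from -200 to -1, was in 7 of 20 clock windows, 35%, in 3.07% of risen, 2% of fallen and 1.92% of uncalled members' windows, and in 1.77% of all gene windows. The GRP7 window (chr2:9266558-9266757, minus strand, RefSeq TAIR10.1) holds 3 matches, in capitals, and is shown because GRP7 was the most abundant clock-list member in the double.
GRP7: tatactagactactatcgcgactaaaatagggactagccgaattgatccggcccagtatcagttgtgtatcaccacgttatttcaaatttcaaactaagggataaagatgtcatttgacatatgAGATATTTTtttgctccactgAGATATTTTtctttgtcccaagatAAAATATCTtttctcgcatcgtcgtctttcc

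Defence hormone genes were read by branch. In the salicylic acid list 10 of 20 members rose and 2 fell. The defence markers PR1 and PR2 rose from 9.38 to 156 and from 44.5 to 236 FPKM. FMO1, which makes the mobile immune signal N-hydroxypipecolic acid, rose from 0.184 to 7.21 FPKM. EDS5, a chloroplast exporter in the salicylic acid pathway, rose from 4.19 to 12.8 FPKM. The regulators WRKY70 and WRKY54 fell from 89.1 to 31.4 and from 10.3 to 2.87 FPKM, and NPR1, a salicylic acid receptor, was at 16.3 and 12.4 FPKM. In the jasmonate list the counts each way were near the 14.7% and 13.1% of all members. Here 4 of 33 members rose, the synthesis genes AOC2 (70.6 to 197 FPKM) and AOC3 (6.06 to 14.6), VSP2 (51.9 to 131) and the repressor gene JAZ1 (10.08 to 30.3), and 4 fell, VSP1 (77.5 to 24.1), JAZ9, JAZ6 and the defensin gene PDF1.2b, which was at 18.6 FPKM and listed at 0 in the double. PDF1.2 was at 102 and 0.319 FPKM and was not called (q = 0.341, authors' deposited table). In the ethylene list 3 of 18 members rose and 4 fell, beside the same 14.7% and 13.1% of all members. The rises held HCHIB, a chitinase, from 4.01 to 22.1 FPKM.

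Of 18 heat shock members 12 rose and none fell, with a median of 1.36. HSP70-4 went from 9.83 to 317 FPKM, HSP90.1 from 4.90 to 33.8, MBF1C from 19.4 to 83.7 and the factor genes HSFB1 and HSFA2 from 14.1 to 59.6 and from 0.662 to 6.64 FPKM. The Col-0 pair gave a median of 0.83, with HSP90.1 at 5.62 and 44.0 FPKM, HSFA2 at 0.847 and 8.65 and HSP70-4 at 12.3 and 126 FPKM, and the dcl2-1 pair gave -0.31. Of the small heat shock protein genes HSP21, HSP22 and HSP17.8 rose. Their q values in the authors' deposited table were 0.000211, 0.000211 and 0.0207. HSP21 and HSP22 were listed at 0 in dcl4-2, and HSP17.8 had an authors' log2 ratio of 1.03, just past the 2-fold limit. Among those not called, HSP17.4 was at 0.376 and 5.12 FPKM (q = 0.147, authors' deposited table) and HSP18.2 at 6.24 and 5.69 FPKM. In the unfolded protein response of the endoplasmic reticulum 1 of 10 members rose, the factor gene BZIP60 from 38.6 to 77.2 FPKM, and BIP1 was at 136 and 152 FPKM. Of 17 senescence members 8 rose and 1 fell. SWEET15, a sugar exporter of aging leaves, rose from 2.11 to 183 FPKM and SAG21 from 32.2 to 472 FPKM, the factor gene NAP fell from 29.6 to 7.96 FPKM, and SAG12, a late senescence protease, was below 1 FPKM in both. Autophagy genes showed 2 rises and 1 fall in 10 members, near the 14.7% and 13.1% of all members.

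Cell division and wall genes fell more often than they rose. Of 24 cell division members 12 fell and none rose, with a median of -0.83: the replication genes PCNA1 and MCM7 from 22.8 to 6.76 and from 11.3 to 3.12 FPKM, the kinase gene AUR1 from 7.29 to 1.79 and the mitotic cyclin gene CYCB1;2 from 11.2 to 3.39 FPKM. On the log2(FPKM + 1) scale 6 passed. Of 22 wall members 10 fell and 4 rose. XTH6 led the falls, followed by the expansin gene EXPA8 (92.4 to 5.60 FPKM), XTH16 (31.6 to 2.81) and XTH9 (216 to 27.2), while EXPA15 rose from 9.27 to 65.3 FPKM, and the cellulose synthase gene CESA1 was at 133 and 108 FPKM. Cuticular wax genes fell in 8 of 19 members, CER1, which makes wax alkanes, from 76.6 to 23.7 FPKM and KCS20 from 87.1 to 26.6 FPKM, and 1, KCS2, rose from 3.28 to 20.1 FPKM. RST1 and RIPR, which link SKI2 to the exosome, were at 6.10 and 7.38 and at 4.798 and 4.34 FPKM.

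Of 15 aliphatic glucosinolate members, which make methionine-derived defence compounds, 6 fell, and the median was -0.93, IPMDH1 from 371 to 113 and CYP79F1 from 362 to 128 FPKM. Their regulators MYB28 and MYB29 were at 69.6 and 84.5 and at 41.4 and 45.5 FPKM. The list's median in the Col-0 pair was 0.36. In the indole branch the camalexin genes PAD3 and CYP71A13 rose from 2.11 to 15.1 and from 1.04 to 8.15 FPKM, MYB34 from 14.5 to 53.0 FPKM, and CYP83B1 fell from 233 to 113 FPKM. Cytosolic ribosomal protein genes had a median of -0.11, and 1 of 14, the S4 family gene AT5G39850, rose, from 15.2 to 87.0 FPKM. Of 9 floral members 3 fell, all below 5 FPKM, SEP1 from 4.97 to 0.318, AP3 from 2.26 to 0.331 and PI from 2.09 to 0.536 FPKM, and AP1 was at 2.40 and 0.0545 FPKM (q = 0.336, authors' deposited table).

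Loss of SKI2 was then compared between backgrounds that share no library, by size alone, since the table gives no test for the other pairs. A log2 difference of at least 1 was seen in 4995 members in dcl4-2, 25.3%, with 13.3% higher and 11.9% lower. It was seen in 967 members in Col-0, 4.9%, with 2.55% higher and 2.34% lower, and in 200 members in dcl2-1, 1.01%, with 0.501% higher and 0.511% lower. Members were chosen by FPKM in dcl4-2 and the double alone, which favours that pair. With no minimum FPKM the counts were 4995 genes in dcl4-2, 1025 in Col-0 and 264 in dcl2-1. Of the members at least 1 higher, 220 were so in both dcl4-2 and Col-0, 8.35% of the 2636 in dcl4-2 and 43.7% of the 504 in Col-0. Of those at least 1 lower, 190 were so in both, 8.05% of 2359 and 41% of 463. Opposite moves of at least 1 were seen in 117 members.

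**Figure D5:**
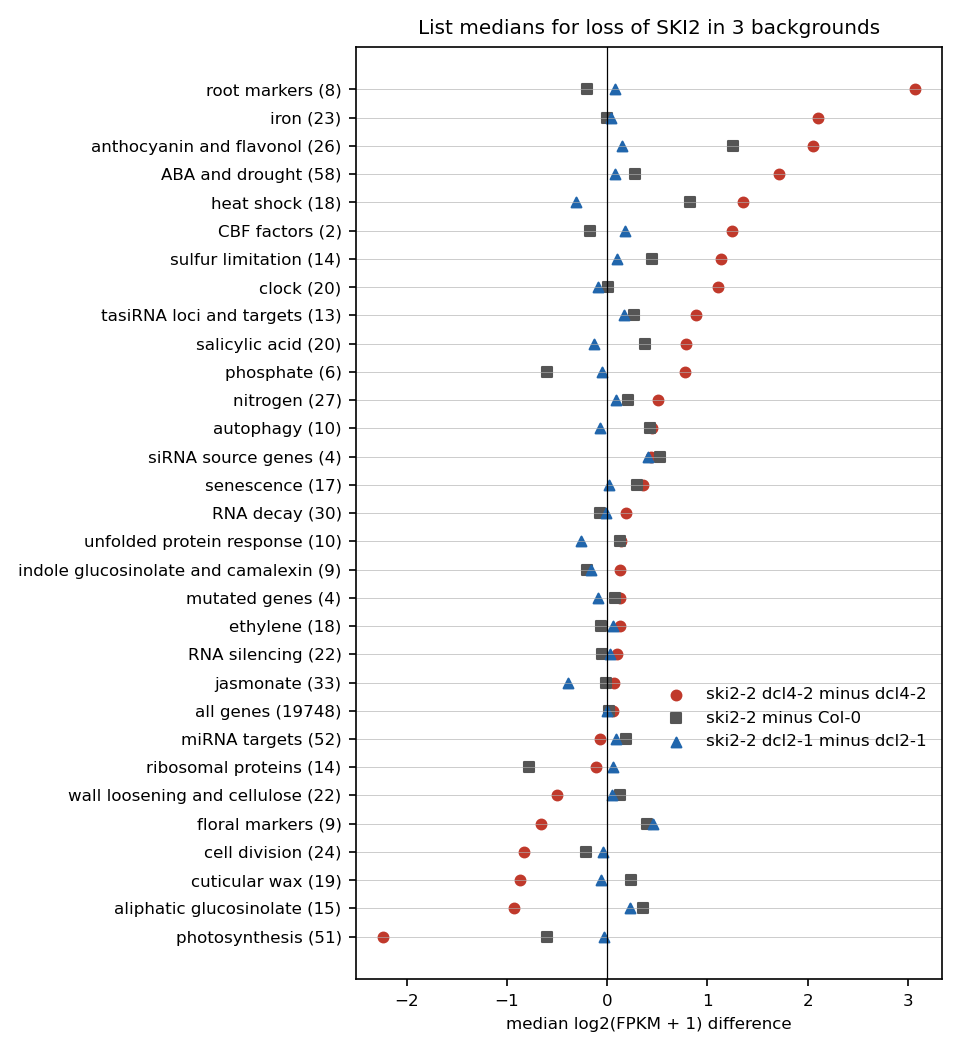
Points give the median log2(FPKM + 1) difference of each list for loss of SKI2 in dcl4-2 (circles), Col-0 (squares) and dcl2-1 (triangles), with the number of members in brackets. The circles run from -2.24 for photosynthesis to 3.08 for root markers, and the triangles stay between -0.39 and 0.46.

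The difference of the differences was at least 1 in favour of dcl4-2 for 2576 members, 13%, and at most -1 for 2416, 12.2%, together 25.3%. Among genes with at least 5 FPKM in one of the 4 genotypes and none listed at 0, LEA7 led upwards, at a log2 difference of 8.85 in dcl4-2 and 0.27 in Col-0, followed by AT2G05510, a glycine-rich protein gene, at 8.78 and -0.71. Next came LTP4 at 7.84 and 0.34, MLP34 at 7.76 and -1.42, RD29B at 7.25 and 0.04, GRP9 at 6.06 and -2.19, AT2G33830 at 5.87 and -0.90 and the trypsin inhibitor gene KTI1 at 5.56 and -1.38. The ranking itself favours opposite directions in the 2 backgrounds. AT4G19430, an uncharacterized gene, led downwards under the same limits, at -4.14 in dcl4-2 and 2.996 in Col-0. It was at 15.7, 132, 21.5 and 0.276 FPKM in Col-0, ski2-2, dcl4-2 and the double, and the last pair had q = 0.0545 (authors' deposited table). MEE3 followed at -6.18 and 0.74, AT1G67865 at -5.01 and 1.55, XTH6 at -5.23 and 0.45, AT2G20870 at -4.96 and 0.36, AT5G33370 at -4.50 and 0.67, AT5G56840 at -4.75 and 0.26 and AT1G62500 at -4.35 and 0.58.

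The triple mutant lacks DCL2 in addition, and its values are set beside those of the double and of dcl4-2. LTP4 was at 4.99 FPKM in dcl4-2, 1376 in the double and 3.17 in the triple. RAB18 was at 28.7, 1429.6 and 33.8 FPKM, HAI1 at 1.53, 125 and 2.42 FPKM, and BHLH38 at 0.884, 30.8 and 0.926 FPKM. XTH6 was at 302, 7.10 and 417 FPKM and MEE3 at 120, 0.675 and 170 FPKM. RBCS1A was at 25559, 4452 and 13622 FPKM, DFR at 127, 1099.6 and 193 FPKM and HSP90.1 at 4.90, 33.8 and 38.5 FPKM. The genes of this paragraph were taken from those that differed between the double and dcl4-2, so their values in the triple are a description. Against dcl4-2 the triple differed by at least 1 (log2) in 1041 members, 5.27%, with 2.27% higher and 3% lower. The list medians of the triple minus dcl4-2 were 0.07 for ABA and drought, 0.03 for iron, 0.15 for root markers, -0.48 for photosynthesis and 0.67 for anthocyanin. They were 1.08 for trans-acting siRNA loci and targets, 0.69 for heat shock, -0.65 for phosphate, 0.60 for siRNA source genes and 0.55 for sulfur limitation. Over the double the triple was higher in 2649 members, 13.4%, and lower in 2813, 14.2%, by the authors' deposited table. These comparisons share libraries of dcl4-2 or of the double.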

How the data were processed

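Polyadenylated RNA of aerial parts was sequenced in 33 libraries of 11 genotypes, 3 each, and 6 libraries belong to the main comparison. Per the submitters' processing notes reads were aligned to TAIR10 with TopHat2 2.1.1 and values computed with Cuffdiff, whose version is not given in the sources used here. The deposited FPKM values are 1 per gene and genotype, pooled by the authors over its libraries, so read depth, SD and n are unknown. The authors also deposited log2 ratios, which differ from the log2 of the listed FPKM ratio by a median of 0.0163. These hold no number where the double is listed at 0. The p-value and q-value columns in the deposited table come from the authors' test. No test between libraries could be made from pooled values, and the labels do not say whether the libraries were separate sowings, so p-values can reflect no more than the spread between them. Neither strandedness nor the handling of reads shared by paralogs is stated, so near-identical copies, tandem genes and antisense partners are uncertain.

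From these values log2(FPKM + 1) differences were computed with a pseudocount of 1. A member was called at a q of 0.05, an authors' log2 ratio of 1 and 1 FPKM in either genotype. The text names the 12 largest differences each way among called genes with at least 5 FPKM and no listed 0, the 4 largest called members of a list with further members, and the 8 largest differences each way between the dcl4-2 and Col-0 backgrounds among members with at least 5 FPKM in one of the 4 genotypes and none listed at 0. The members and the 30 lists were chosen with earlier results of these data known. Names came from RefSeq TAIR10.1, which matched 32810 of 33557 identifiers. Windows of 200 bases before gene starts were read from that genome. For the scaling alternatives the authors' log2 ratio was shifted by the change in the FPKM ratio. Alternatives were a pseudocount of 0.1, a minimum of 5 FPKM or none, quantile normalization, median-of-ratios scaling, other call limits and leaving out genes that differ between dcl4-2 and Col-0. The arithmetic was tested on simulated data. Python 3.11.15, numpy 2.4.6, pandas 2.3.3 and matplotlib 3.10.9 were used.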

Additional observations from a re-analysis of the deposited data

How the results depend on the processing

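No paired analysis was possible because the table holds 1 pooled value per genotype and no library values; for the same reason no replicate could be left out. With no minimum ratio, 6307 members were higher and 5500 lower by the authors' deposited q. Calls on the log2(FPKM + 1) scale with the same q gave 2204 and 2195. Quantile normalization gave 2659 and 2822, and a minimum of 5 FPKM 1936 and 2088, so under these the falls outnumbered the rises; median-of-ratios scaling gave 2792 and 2711. Of 132 alternative counts over 22 lists 126 stayed within 1.5 times the main count. The exceptions were 27 photosynthesis falls under quantile normalization, 0 floral falls at a minimum of 5 FPKM, 2 phosphate rises under each of that minimum, quantile normalization and the log2(FPKM + 1) scale, and 6 cell division falls on that scale. Its use for the lists was chosen after seeing the data. With a pseudocount of 0.1, 1761 members differed by at least 1 in the Col-0 pair and 665 in the dcl2-1 pair, and at a minimum of 5 FPKM 95 did in the dcl2-1 pair. Counts for the dcl4-2 pair ran from 3821 to 6251 over the alternatives.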

Other observations

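Size and test parted for 88 members, which differed by at least 3 (log2) between the double and dcl4-2 without being called, 68 of them higher and 20 lower. Among those with at least 5 FPKM and no listed 0, LEA7 and RD29B are given above, and others were AT2G05510, a glycine-rich protein gene (0.184 and 519.6 FPKM), MLP34 (0.182 and 255 FPKM), AT2G21820, a seed maturation protein gene (1.03 and 192 FPKM), the defensin-like gene PDF2.1 (0.260 and 112 FPKM), the LEA gene AT3G17520 (0.0385 and 87.7 FPKM) and FLS5, a flavonol synthase homologue (0.242 and 71.1 FPKM). Their q values in the authors' deposited table were 0.141, 0.165, 0.0707, 0.364, 0.240 and 0.183. The cold response factor CBF3 rose from 0.718 to 9.02 FPKM, and CBF2 was at 1.005 and 0.939 FPKM.

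Short RNAs gave values that do not follow genotype, and some other genes also had listed zeros beside high values. The snoRNA gene AT3G21805 was listed at 5575 FPKM in dcl4-2 and at 0 in Col-0, ski2-2 and the double, and AT1G03502, also a snoRNA gene, at 711 FPKM in the double and 0 in dcl4-2. AT2G01021 was at 3657 FPKM in the double, 4509 in Col-0 and 0 in ski2-2 and dcl4-2 (q = 0.000211, authors' deposited table). MT1A, a metallothionein gene, was at 326 FPKM in the double and listed at 0 in the other 10 genotypes (q = 0.353, authors' deposited table). LHCB1.3 was listed at 0 in dcl2-1 and at 40528 FPKM in ski2-2 dcl2-1. In all, 285 members were listed at 0 in dcl4-2 and 93 in the double.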
